A study of Homo sapiens with 6 samples.

Results

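The genes described here are 48 phosphatases that act on phosphotyrosine, out of 61279 genes to which reads were summed. They were taken by name: 20 receptor-type protein tyrosine phosphatase (PTP) genes, 16 non-receptor PTP genes and 12 dual-specificity phosphatase (DUSP) genes whose products are directed mainly at mitogen-activated protein (MAP) kinases. RNA sequencing was done on T47D, a breast cancer line that is positive for hormone receptors, grown in RPMI with fetal bovine serum. The labels give a wild-type genotype, whereas the study describes this line as mutant in the kinase gene PIK3CA. The cells were treated for 24 hours with 4 μM MI-503, which keeps menin from binding the histone methyltransferase MLL1, or with the solvent DMSO. There were 3 libraries labelled MI-503 and 3 labelled DMSO, which the study describes as independent experiments on this single line. The comparison asks which transcripts differ after a day of MLL1 inhibition.

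Tyrosine phosphatases remove the phosphate groups that tyrosine kinases add, and so set how long a signal from a growth factor receptor, an adhesion complex or a cytokine receptor lasts. Receptor-type PTPs span the membrane, and many carry adhesion-like extracellular parts. Non-receptor PTPs are brought to their substrates by SH2, FERM, PDZ or proline-rich segments, and the MAP kinase-directed DUSPs remove phosphate from both the threonine and the tyrosine of the activation loop of ERK, JNK or p38. Several DUSP genes are themselves induced by ERK, which makes them part of a negative feedback loop.

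The 6 libraries held 17404736 to 22168525 estimated reads, and mitochondrial genes took 1.38% to 7.18% of them. The libraries labelled MI-503 and the libraries labelled DMSO differed in markers of cell identity as well as in treatment. Of the luminal breast markers, 13 of 14 tested were higher and TBX3 was lower. Their summed level, in counts-per-million (CPM), was 9056 to 11537 CPM in the libraries labelled MI-503, against 466 to 553 CPM in the libraries labelled DMSO. All 13 prostate markers tested were lower, with sums of 161 to 165 CPM against 7045 to 8948 CPM. ESR1, the estrogen receptor gene that defines this line's class, averaged 248 CPM in the libraries labelled MI-503 and had 4 reads over the 3 libraries labelled DMSO, whereas KLK3, which encodes prostate-specific antigen, had 0 reads in the libraries labelled MI-503 and averaged 3708 CPM in the libraries labelled DMSO. The label of the DMSO group thus goes against its defining markers. Every difference below is between the libraries labelled MI-503 and the libraries labelled DMSO, and an effect of the compound and a difference between the cells in the 2 sets of libraries cannot be told apart. Nor can fewer cells of a type and less RNA per cell be told apart in bulk samples such as these.

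Of the 16442 genes with enough reads to be tested, 62.9% passed an adjusted p of 0.05 in edgeR's quasi-likelihood test with Benjamini-Hochberg adjustment, 31.7% higher and 31.2% lower in the libraries labelled MI-503. For 68.7% of these genes the CPM of the 2 sets of 3 libraries did not overlap. With a log2 fold change beyond 2 as well, 12.6% were higher and 11.7% were lower. The median log2 fold change over all genes tested was -0.0044, and the median of its absolute value was 0.902. Counts of phosphatase genes are to be read against these shares. In total 39 of the 48 phosphatase genes were tested and 30 of them (76.9%) passed, 13 higher and 17 lower. The other 9 had too few reads. The filter keeps a gene that has reads in one group alone, and such a gene had to differ, so that the counts over the genes tested do not speak for all 48.

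**Figure D1:**
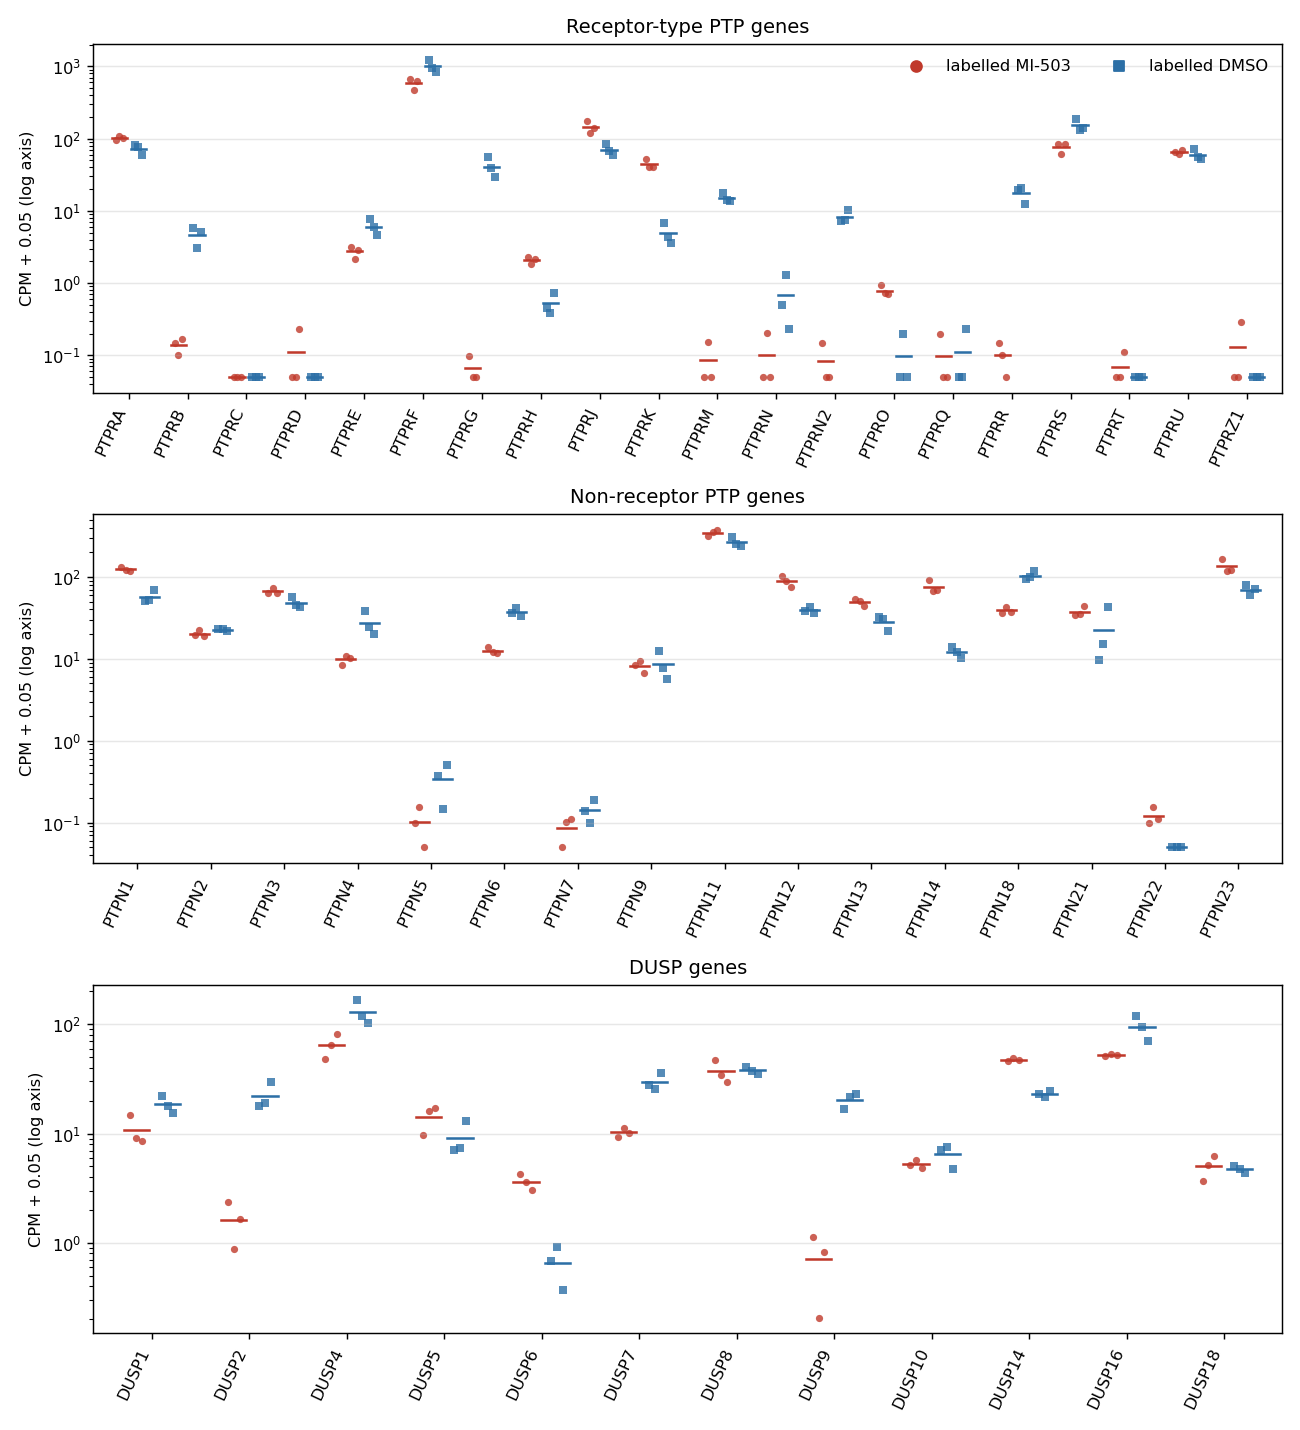
Levels of the 48 phosphatase genes in each library, as TMM-scaled CPM plus 0.05 on a log axis. Circles are the 3 libraries labelled MI-503, squares the 3 libraries labelled DMSO, and bars their means. PTPRG, PTPRM, PTPRR and PTPRN2 lie near the bottom of the axis in the libraries labelled MI-503 and between 7.19 and 55.3 CPM in the libraries labelled DMSO.

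Among the 20 receptor-type PTP genes, 14 were tested. In the libraries labelled MI-503, 5 of them were higher (PTPRA, PTPRH, PTPRJ, PTPRK and PTPRO) and 8 were lower (PTPRB, PTPRE, PTPRF, PTPRG, PTPRM, PTPRN2, PTPRR and PTPRS), and PTPRU did not pass. The median log2 fold change of the 14 was -0.87, and the median of the absolute values was 2.63. The 13 called are 92.9% of those tested, against 62.9% of all genes tested. They include genes that passed the filter only through reads in one set of libraries, the libraries labelled DMSO for some and those labelled MI-503 for others. Beyond a log2 fold change of 2 there were 3 higher and 5 lower, with 12.6% and 11.7% over all genes tested. Large differences in both directions were thus found among the genes tested, but most rest on genes with few reads in one set of libraries. The lower members included 5 that were almost without reads in the libraries labelled MI-503. Of the 3 higher ones, PTPRO had 42 reads in the libraries labelled MI-503 against 3 in those labelled DMSO, and PTPRH had 116 against 31.

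PTPRG, which carries a carbonic anhydrase-like domain outside the cell, had the lowest fitted log2 fold change of the members (chr3:61561569-62297609 on GRCh38). It had 0.0488, 0 and 0 CPM in the libraries labelled MI-503, against 55.3, 38.8 and 29.0 CPM in the libraries labelled DMSO. The values of the first group come from 1 read in total, against 2659 reads in the second. The read ratio was 0.000431 (95% counting interval 0.000011 to 0.002403), and the fitted log2 fold change was -10.75 with a standard error of 0.55 and an adjusted p of 1.956e-07 in edgeR. Its counting interval overlaps those of PTPRM, PTPRR and PTPRN2, so that their order is not set. Here and for the other genes with 1 to 3 reads in a group, the interval covers counting error only and the fitted value depends on the prior count. PTPRZ1, which shares the extracellular domain, had 4 reads in the libraries labelled MI-503, all in replicate 3, and 0 in the libraries labelled DMSO. A long non-coding RNA on the strand opposite to PTPRG, PTPRG-AS1, went the other way, with means of 2.26 CPM in the libraries labelled MI-503 and 0.17 CPM in the libraries labelled DMSO (log2 fold change 3.68, edgeR adjusted p 4.002e-04). The strand setting of the quantification is not given in the sources used here, so reads of this pair are uncertain.

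PTPRR and PTPRB are next to each other on chromosome 12, on the same strand, at chr12:70638073-70920738 and chr12:70515870-70637440. PTPRR carries a kinase interaction motif through which it binds and dephosphorylates MAP kinases. It had 0.0975, 0.0523 and 0 CPM in the libraries labelled MI-503, against 19.4, 20.5 and 12.3 CPM in the libraries labelled DMSO. All 3 libraries of the first group were thus at 2 reads or fewer. The read ratio was 0.00307 (95% counting interval 0.000632 to 0.00899), with a fitted log2 fold change of -8.20 (standard error 0.52, edgeR adjusted p 8.212e-07). PTPRB, known as the vascular endothelial PTP, had 0.0975, 0.0523 and 0.119 CPM against 5.70, 3.05 and 5.01 CPM, and its fitted log2 fold change was -5.60 (standard error 0.54, edgeR adjusted p 1.372e-05). The endothelial markers summed to 0.098 to 0.209 CPM in the libraries labelled MI-503 and to 14.7 to 31.4 CPM in the libraries labelled DMSO. In the libraries labelled DMSO it was almost all VWF, at 0.0733 CPM in the libraries labelled MI-503 against 24.5 CPM in the libraries labelled DMSO, while PECAM1 and CDH5 had 0 reads in the libraries labelled MI-503 and 2 and 1 in the libraries labelled DMSO. The part of such cells in the PTPRB result was not tested.

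PTPRM encodes one of the PTPs with a MAM domain, which bind the same molecule on a neighbouring cell. It had 0, 0.105 and 0 CPM in the libraries labelled MI-503, against 17.6, 13.9 and 13.8 CPM in the libraries labelled DMSO. The reads numbered 2 against 980, for a ratio of 0.00234 (95% counting interval 0.000283 to 0.00847) and a fitted log2 fold change of -8.51 (standard error 0.57, edgeR adjusted p 1.27e-06). PTPRK, another gene with a MAM domain, was the opposite case. It had 52.5, 39.9 and 39.9 CPM in the libraries labelled MI-503, against 6.78, 4.31 and 3.56 CPM in the libraries labelled DMSO, so that the lowest library of the first group was well above the highest of the second. Its log2 fold change was 3.17 (standard error 0.27, edgeR adjusted p 6.189e-06). PTPRU, the remaining expressed member of the group, had 65.7, 61.1 and 70.1 CPM against 71.1, 55.5 and 52.2 CPM, and these ranges overlapped (log2 fold change 0.14, standard error 0.17, adjusted p 0.4892). PTPRT had 1 read in all.

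Because transcripts-per-million values (TPM) take the effective length of a transcript into account, they allow levels to be summed over genes. The 4 genes with a MAM domain summed to 32.3 ± 2.92 TPM in the libraries labelled MI-503 and 26.8 ± 9.24 TPM in the libraries labelled DMSO (SD, n = 3 each), and the ranges overlapped. PTPRK made 11.5 TPM of that sum in the libraries labelled MI-503 and 1.78 TPM in the libraries labelled DMSO, PTPRM 0.0514 TPM and 6.73 TPM, and PTPRU 20.7 TPM and 18.3 TPM. PTPRU was the largest part in both sets of libraries, and PTPRK and PTPRM differed in opposite directions.

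PTPRN2 and PTPRN encode proteins of the secretory granule with little or no phosphatase activity of their own. PTPRN2 had 0.0975, 0 and 0 CPM in the libraries labelled MI-503, against 7.19, 7.46 and 10.3 CPM in the libraries labelled DMSO. The first group thus held 2 reads, all in replicate 1. The read ratio was 0.00426 (95% counting interval 0.000515 to 0.0155), and the fitted log2 fold change was -7.65 (standard error 0.65, edgeR adjusted p 6.258e-06). PTPRN had 3 reads against 40 and was not tested (ratio 0.0859, 95% counting interval 0.017 to 0.27). Markers of neural and neuroendocrine cells, in which granules of this kind are abundant, summed to 28.3 to 29.6 CPM in the libraries labelled MI-503 and 1.22 to 2.78 CPM in the libraries labelled DMSO. All 3 of these markers that were tested were called higher in the libraries labelled MI-503, with 62.9% called in either direction over all genes tested. Most of the first sum was SYT1, at a mean of 22.0 CPM against 0.0151 CPM. INSM1 had 195 reads against 0, and SYP had 186 against 91. NCAM1, at 1 read against 26, and SCG2, at 1 read against 7, were not tested and had more reads in the libraries labelled DMSO. The part of such cells in the PTPRN2 result was not tested, and CHGB, SNAP25 and STMN2 had 0 reads in all 6 libraries.

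The LAR type, named after the protein that PTPRF encodes, regulates cell adhesion and binds liprins. PTPRF was the most abundant receptor-type gene by TPM in every library. It had 678, 477 and 629.6 CPM in the libraries labelled MI-503, against 1233, 956 and 827 CPM in the libraries labelled DMSO. The groups did not overlap, and the log2 fold change was -0.76 (standard error 0.20, edgeR adjusted p 0.008662). PTPRS had 85.1, 61.4 and 84.2 CPM against 186, 131 and 142 CPM, again without overlap (log2 fold change -0.99, standard error 0.19, edgeR adjusted p 0.001283). With offsets for effective length the PTPRS value was -0.52 (adjusted p 0.02285). PTPRD, the remaining LAR gene, had 3 reads in the libraries labelled MI-503, all in replicate 3, and 0 in the libraries labelled DMSO. In summed TPM the LAR type stood at 135 ± 19.3 in the libraries labelled MI-503 and 246 ± 64.2 in the libraries labelled DMSO (SD, n = 3 each), with no overlap.

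Of the PTPs whose extracellular part is built of fibronectin repeats alone, PTPRJ, which acts on several growth factor receptors, had the highest TPM. It had 173, 121 and 142 CPM in the libraries labelled MI-503, against 84.7, 67.0 and 58.5 CPM in the libraries labelled DMSO, and the groups did not overlap. Its log2 fold change was 1.05 (standard error 0.19, edgeR adjusted p 0.0009138). PTPRH had means of 2.05 CPM and 0.477 CPM (log2 fold change 2.09, edgeR adjusted p 0.002098). PTPRO passed as well, at 42 reads against 3 (ratio 16.04, 95% counting interval 5.13 to 80.9, edgeR adjusted p 0.003131), with a fitted log2 fold change of 3.82 that was 6.90 without DMSO replicate 2, but it overlaps RERG on the opposite strand. RERG averaged 82.1 CPM in the libraries labelled MI-503 and 0.045 CPM in the libraries labelled DMSO, and reads of this pair are uncertain for the same reason as those of PTPRG and PTPRG-AS1. PTPRQ had 3 reads against 4.

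The pair with a short extracellular part moved apart. PTPRA, which can activate SRC by removing its inhibitory phosphate, had 95.2, 108 and 103 CPM in the libraries labelled MI-503, against 80.8, 76.1 and 59.99 CPM in the libraries labelled DMSO. The ranges did not overlap but came close, and the log2 fold change was 0.50 (standard error 0.16, edgeR adjusted p 0.02038). The call was lost without MI-503 replicate 2 (adjusted p 0.05785) and without DMSO replicate 3 (adjusted p 0.05297). PTPRE had 3.12, 2.09 and 2.85 CPM against 7.55, 5.86 and 4.65 CPM, with a log2 fold change of -1.16 (standard error 0.33, edgeR adjusted p 0.0106). It too lost its call without MI-503 replicate 2 (adjusted p 0.05062), and with offsets for effective length (adjusted p 0.07106).

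PTPRC encodes CD45, the receptor-type PTP of blood cells, and had 0 reads in all 6 libraries. The blood cell markers CD3E, CD3D, MS4A1 and IKZF1 were also at 0 reads throughout. The summed level of the blood cell list was 25.4 to 34.0 CPM in the libraries labelled MI-503, mostly VAV1, and 131 to 172 CPM in the libraries labelled DMSO, mostly LCP1. Over the whole class the TPM summed to 237 ± 22.2 in the libraries labelled MI-503 and 345 ± 89.8 in the libraries labelled DMSO (SD, n = 3 each), and the groups did not overlap. PTPRF made up 44.6% ± 2.77 of the class TPM in the first group and 58.4% ± 0.90 in the second.

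**Figure D2:**
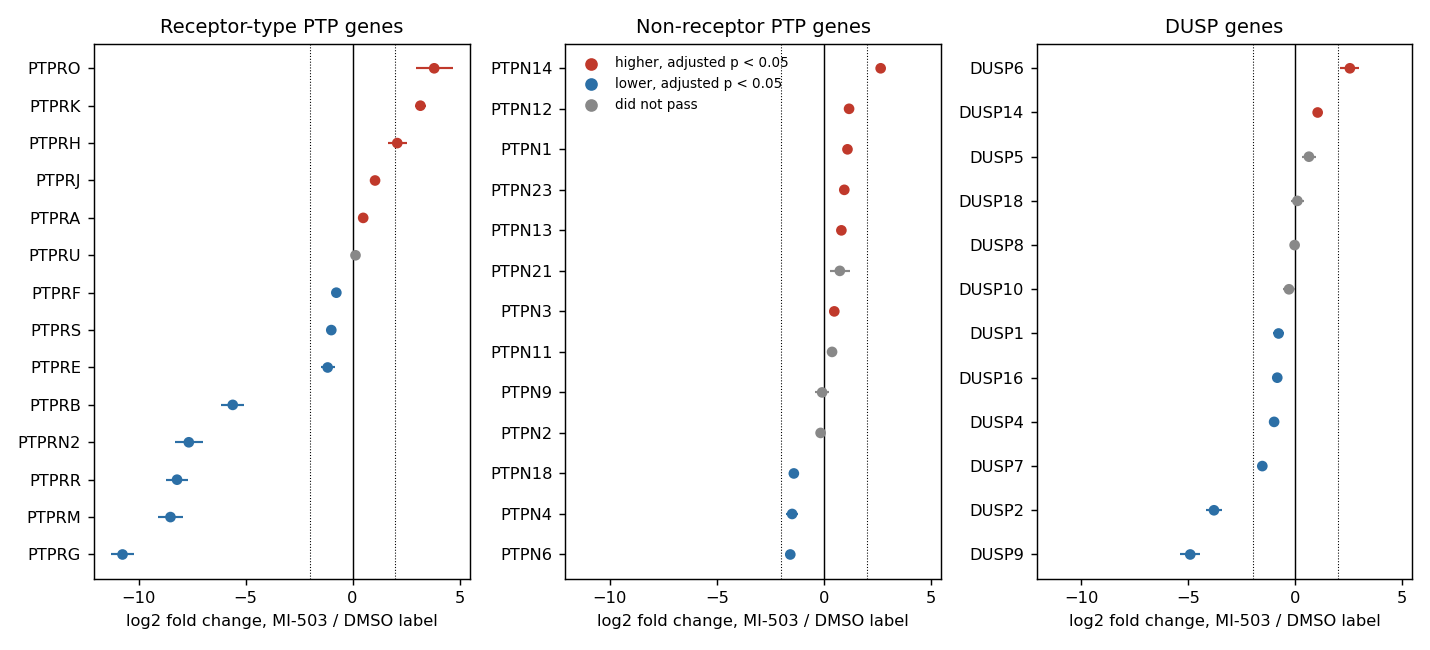
Log2 fold change, libraries labelled MI-503 over libraries labelled DMSO, of the 39 phosphatase genes tested, by class, with points for edgeR's estimate and lines for 1 standard error on either side. Dotted lines mark a log2 fold change of 2 in either direction; red is higher, blue lower and grey did not pass. Receptor-type genes spread from -10.75 to 3.82, non-receptor genes from -1.57 to 2.65 and DUSP genes from -4.91 to 2.55.

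Among the 16 non-receptor PTP genes, 13 were tested. In the libraries labelled MI-503, 6 of them were higher (PTPN1, PTPN3, PTPN12, PTPN13, PTPN14 and PTPN23) and 3 were lower (PTPN4, PTPN6 and PTPN18), while PTPN2, PTPN9, PTPN11 and PTPN21 did not pass. The 9 called are 69.2% of those tested, against 62.9% of all genes tested. The median log2 fold change was 0.48. PTPN14 was the only gene beyond a log2 fold change of 2.

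PTPN14 encodes a FERM-domain phosphatase that binds YAP1 and holds it in the cytoplasm. It had 91.4, 66.5 and 69.9 CPM in the libraries labelled MI-503, against 13.9, 12.2 and 10.2 CPM in the libraries labelled DMSO. Every library of the first group was above every library of the second, and the log2 fold change was 2.65 (standard error 0.20, edgeR adjusted p 2.838e-06). PTPN21, its closest relative, had 33.8, 34.8 and 44.3 CPM against 9.50, 15.0 and 42.9 CPM. DMSO replicate 3 stood apart from the other 2 libraries of its label and reached the range of the libraries labelled MI-503. The log2 fold change was 0.74 (standard error 0.45, adjusted p 0.1776) with all libraries and 1.62 (edgeR adjusted p 0.0004237) without DMSO replicate 3.

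PTPN1 encodes PTP1B, which acts on the insulin receptor and on JAK kinases. It had 131, 120.4 and 118 CPM in the libraries labelled MI-503, against 51.2, 52.9 and 68.5 CPM in the libraries labelled DMSO, with no overlap (log2 fold change 1.10, standard error 0.16, edgeR adjusted p 0.0002339). PTPN2, whose product TCPTP is closely related and acts on JAK1 and on STAT proteins, had 19.5, 22.3 and 19.0 CPM against 23.1, 23.1 and 21.5 CPM. These ranges overlapped, and the log2 fold change was -0.16 (standard error 0.17, adjusted p 0.4513). In summed TPM the pair stood at 57.0 ± 1.64 and 39.3 ± 0.603 (SD, n = 3 each).

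The PEST phosphatases regulate the cytoskeleton and Src family kinases through proline-rich segments. PTPN12, which dephosphorylates p130Cas, had 102, 89.8 and 74.5 CPM in the libraries labelled MI-503, against 38.6, 43.0 and 36.4 CPM in the libraries labelled DMSO. PTPN18 had 35.8, 43.3 and 37.5 CPM against 93.4, 98.6 and 117 CPM. Neither gene overlapped between groups (68.7% of all tested genes did not), and they differed in opposite directions, with log2 fold changes of 1.17 (standard error 0.17, edgeR adjusted p 0.0001935) for PTPN12 and -1.41 (standard error 0.16, edgeR adjusted p 4.491e-05) for PTPN18. By TPM, PTPN18 was the fifth non-receptor gene in the libraries labelled MI-503, with 7.91% ± 0.46 of the class, and the second in the libraries labelled DMSO, with 22.4% ± 3.98. PTPN22, known from lymphocytes, had 4 reads against 0.

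PTPN11 encodes SHP2, which carries SH2 domains and promotes signalling from receptors to RAS and ERK. It had the highest mean TPM of the non-receptor genes in both groups, with 90.8 ± 10.5 TPM in the libraries labelled MI-503 and 73.4 ± 13.3 TPM in the libraries labelled DMSO (SD, n = 3 each). In DMSO replicate 3 it had 64.7 TPM, below the 71.7 TPM of PTPN18. In CPM it had 318, 352 and 372 against 309, 255 and 237, and the groups did not overlap although MI-503 replicate 1 and DMSO replicate 1 were close. The log2 fold change was 0.38 (standard error 0.16, edgeR adjusted p 0.05782), and it passed with DESeq2 (adjusted p 0.04958), with limma-voom (adjusted p 0.04374), without MI-503 replicate 1 (adjusted p 0.03065) and without DMSO replicate 1 (adjusted p 0.01854). PTPN6, which encodes SHP1, an inhibitory phosphatase best known from blood cells but also made by epithelia, had 13.8, 12.0 and 11.7 CPM against 35.8, 42.2 and 33.6 CPM. The groups were well apart, and the log2 fold change was -1.57 (standard error 0.18, edgeR adjusted p 4.685e-05). The blood cell sum given above was also higher in the libraries labelled DMSO, and its part in the PTPN6 result was not tested. The SH2 pair together made 101 ± 8.001 TPM in the libraries labelled MI-503 and 103 ± 14.5 TPM in the libraries labelled DMSO, which overlapped.

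Of the genes with FERM and PDZ domains, PTPN13, which binds the FAS receptor, had 53.3, 51.1 and 44.4 CPM in the libraries labelled MI-503, against 32.5, 30.3 and 21.9 CPM in the libraries labelled DMSO (log2 fold change 0.82, standard error 0.19, edgeR adjusted p 0.003756). PTPN4 had 8.39, 10.7 and 10.2 CPM against 38.1, 24.2 and 19.8 CPM, and the highest value was DMSO replicate 1 (log2 fold change -1.49, standard error 0.26, edgeR adjusted p 0.000771). The PTPN4 call ended when the effective length of its transcripts entered as an offset, at a log2 fold change of -0.58 and an adjusted p of 0.2069. PTPN3 had 64.0, 74.1 and 63.8 CPM against 56.4, 44.8 and 43.1 CPM (log2 fold change 0.48, standard error 0.17, edgeR adjusted p 0.02652). This small difference lost its call with upper-quartile scaling (adjusted p 0.05876) and without MI-503 replicate 2, DMSO replicate 2 or DMSO replicate 3 (adjusted p 0.08496, 0.1039 and 0.06677).

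PTPN23, whose BRO1 domain links it to endosomal sorting, had 167, 117 and 122 CPM in the libraries labelled MI-503, against 80.1, 59.5 and 70.2 CPM in the libraries labelled DMSO. No library overlapped, and the log2 fold change was 0.95 (standard error 0.19, edgeR adjusted p 0.001406). PTPN9, which has a SEC14 domain, had means of 8.12 ± 1.35 CPM and 8.61 ± 3.46 CPM and did not pass (log2 fold change -0.08, standard error 0.32, adjusted p 0.8304). PTPN5 and PTPN7, the relatives of PTPRR that carry the kinase interaction motif, had 3 reads against 19 and 2 reads against 6 and were not tested. For PTPN5 the ratio was 0.181 (95% counting interval 0.0343 to 0.615), and for PTPN7 it was 0.382 (95% counting interval 0.0377 to 2.14). Over the class, TPM summed to 305 ± 8.93 in the libraries labelled MI-503 and 282 ± 29.8 in the libraries labelled DMSO (SD, n = 3 each), and the groups overlapped.

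The 12 DUSP genes were all tested. In the libraries labelled MI-503, 2 of them were higher (DUSP6 and DUSP14) and 6 were lower (DUSP1, DUSP2, DUSP4, DUSP7, DUSP9 and DUSP16), while DUSP5, DUSP8, DUSP10 and DUSP18 did not pass. The 8 called are 66.7% of the class, against 62.9% of all genes tested. The median log2 fold change was -0.54, with DUSP6 higher and DUSP2 and DUSP9 lower beyond a log2 fold change of 2.

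The nuclear, inducible DUSPs are made soon after MAP kinases are activated. DUSP2 had 2.29, 0.837 and 1.60 CPM in the libraries labelled MI-503, against 17.7, 19.0 and 29.7 CPM in the libraries labelled DMSO. The lowest library labelled DMSO was far above the highest labelled MI-503, and the log2 fold change was -3.80 (standard error 0.38, edgeR adjusted p 1.833e-05). DUSP4 had 48.2, 65.2 and 81.4 CPM against 166, 119.6 and 102 CPM (log2 fold change -0.99, standard error 0.24, edgeR adjusted p 0.004268). Its groups did not overlap, but both spread widely. DUSP1 had 14.6, 9.15 and 8.44 CPM against 22.2, 17.9 and 15.4 CPM (log2 fold change -0.78, standard error 0.26, edgeR adjusted p 0.02461). The MI-503 replicate 1 value came close to DMSO replicate 3, and the call was lost without MI-503 replicate 2 or 3 or DMSO replicate 1 or 2, with adjusted p of 0.09503, 0.08762, 0.07874 and 0.05552. DUSP5, the remaining member, had 9.56, 16.005 and 17.0 CPM against 7.06, 7.36 and 12.9 CPM and overlapped (log2 fold change 0.64, standard error 0.32, adjusted p 0.1041). It passed without MI-503 replicate 1 (adjusted p 0.03546), without DMSO replicate 3 (adjusted p 0.01535) and with no filter on low counts (adjusted p 0.04399). The 4 genes together made 30.8 ± 3.55 TPM in the libraries labelled MI-503 and 69.4 ± 9.94 TPM in the libraries labelled DMSO (SD, n = 3 each).

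The cytoplasmic DUSPs that prefer ERK did not move together. DUSP9 had 1.07, 0.157 and 0.772 CPM in the libraries labelled MI-503, against 16.9, 21.4 and 22.7 CPM in the libraries labelled DMSO. Its log2 fold change was -4.91 (standard error 0.47, edgeR adjusted p 1.326e-05), the largest of the class. DUSP7 had 9.31, 11.1 and 10.2 CPM against 27.5, 25.7 and 35.9 CPM (log2 fold change -1.54, standard error 0.20, edgeR adjusted p 0.0001113). DUSP6, the ERK-induced feedback phosphatase, was at low levels in every library. It had 4.19, 3.56 and 2.97 CPM against 0.633, 0.871 and 0.319 CPM, from 204 reads against 39, and its log2 fold change was 2.55 (standard error 0.45, edgeR adjusted p 0.0007143). In TPM the 3 summed to 5.76 ± 0.389 in the libraries labelled MI-503 and 23.8 ± 2.26 in the libraries labelled DMSO (SD, n = 3 each), and in the libraries labelled DMSO 12.1 TPM were DUSP7 and 11.3 TPM were DUSP9.

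Of the DUSPs that act on JNK and p38, DUSP16 had 51.8, 53.6 and 52.3 CPM in the libraries labelled MI-503, against 119.7, 93.6 and 69.9 CPM in the libraries labelled DMSO. The spread was small in the first group and wide in the second (log2 fold change -0.84, standard error 0.20, edgeR adjusted p 0.003951). DUSP8 had means of 37.0 ± 9.13 CPM and 37.8 ± 2.85 CPM, and DUSP10 of 5.19 ± 0.458 CPM and 6.39 ± 1.52 CPM (adjusted p 0.8941 and 0.3859). The 3 genes summed to 27.5 ± 3.13 TPM and 41.2 ± 12.9 TPM, and these groups overlapped. DUSP14, a small phosphatase that lacks the MAP kinase-binding domain, had 46.4, 49.5 and 46.6 CPM in the libraries labelled MI-503, against 23.0, 21.8 and 24.4 CPM in the libraries labelled DMSO. This difference was narrow in spread on both sides, with a log2 fold change of 1.04 (standard error 0.15, edgeR adjusted p 0.0002185). DUSP18, of the same kind, had means of 4.99 ± 1.32 CPM and 4.67 ± 0.369 CPM (adjusted p 0.8029).

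By TPM the order of the DUSP genes differed between the 2 sets of libraries. DUSP14 came first in the libraries labelled MI-503, with 42.0% ± 0.53 of the class TPM, and the third in the libraries labelled DMSO, with 15.5% ± 1.37. DUSP4 came second in the libraries labelled MI-503, with 12.8% ± 3.20, close to DUSP16 with 12.4% ± 1.63, and first in the libraries labelled DMSO, with 19.4% ± 3.45. In the libraries labelled MI-503, DUSP4 and DUSP16 did not differ beyond their spread. Within the libraries labelled DMSO the leading genes DUSP4, DUSP16 and DUSP14, at 31.8 ± 9.85, 25.8 ± 8.93 and 25.0 ± 1.62 TPM, did not differ beyond their spread. Over the class TPM summed to 115 ± 3.42 in the libraries labelled MI-503 and 162 ± 21.5 in the libraries labelled DMSO (SD, n = 3 each), with no overlap.

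**Figure D3:**
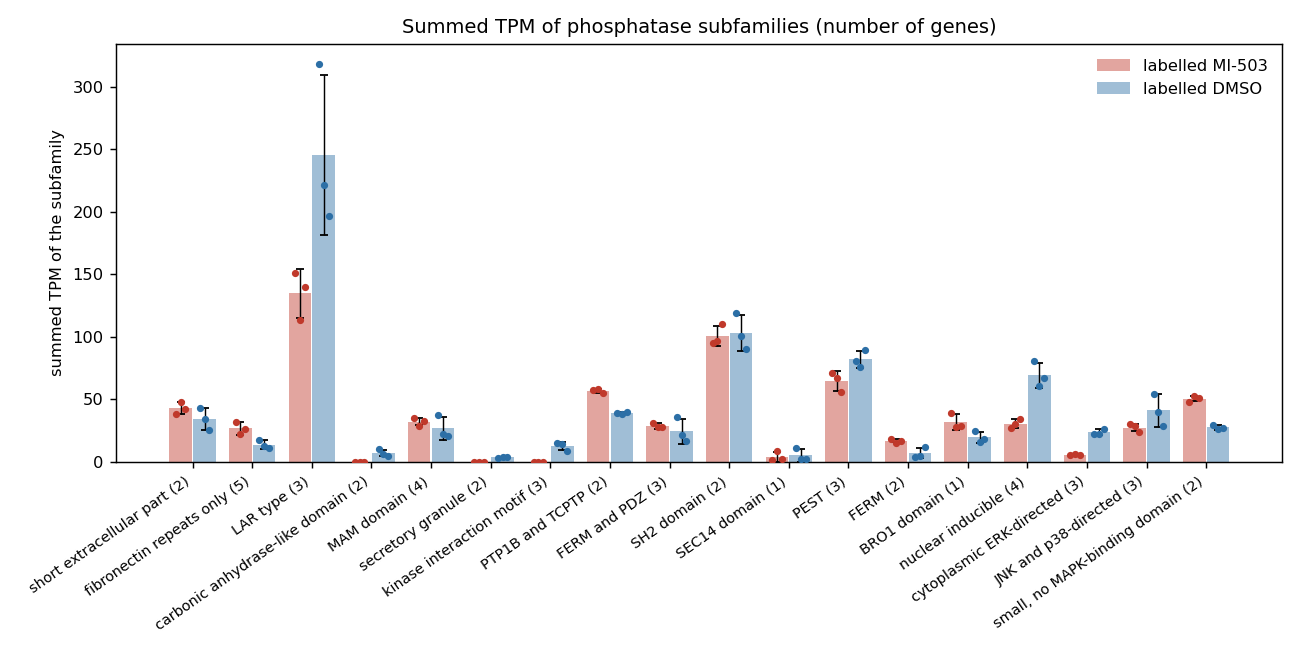
Summed TPM of the phosphatase genes by subfamily, with the number of genes in parentheses. Bars are means of 3 libraries labelled MI-503 (red) and 3 labelled DMSO (blue), lines their SDs and points the libraries. CD45 is left out because it had no reads, and the LAR type, at 135 TPM against 246 TPM, has the highest sum of all subfamilies shown.

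Transcript use was compared as each transcript's share of its gene's TPM. The leading transcript of a group is the one with the highest mean TPM. Of the 30 phosphatase genes with at least 1 TPM in both groups, 26 had the same leading transcript in both. The other 4 were PTPRS, PTPRE, PTPN4 and DUSP8. A single library can decide such a mean. PTPN9-204, counted among the 26, had 0%, 85.6% and 0% of its gene's TPM in the libraries labelled MI-503. PTPRS differed in every library. Its transcript PTPRS-208, without a defined coding sequence, took 39.5%, 46.0% and 38.7% of the gene's TPM in the libraries labelled MI-503, against 18.2%, 20.9% and 18.8% in the libraries labelled DMSO, while PTPRS-204, a coding transcript, took 33.8%, 34.0% and 36.9% against 59.99%, 39.2% and 39.3%. For PTPRE, PTPN4 and DUSP8 the share of the leading transcript ranged widely among libraries of one label. A retained-intron transcript of PTPN4 that led in the libraries labelled MI-503 had 24.5%, 47.97% and 67.6% in the libraries labelled MI-503, against 20.3%, 33.6% and 0% in the libraries labelled DMSO.

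Within PTPRF, the leading coding transcript PTPRF-201 took 53.8%, 45.8% and 49.6% of TPM in the libraries labelled MI-503, against 27.8%, 40% and 37.7% in the libraries labelled DMSO, without overlap. PTPRF-206, also coding, took 15.2%, 8.95% and 12.6% against 21.0%, 24.0% and 20.1%. PTPRU did not pass as a gene, but its transcript PTPRU-210, without a defined coding sequence, took 23.6%, 10.4% and 21.9% of the gene in the libraries labelled MI-503 and 0% in each library labelled DMSO. These transcripts were chosen after their values were seen, the shares are estimates from short reads, and no test was run on them.

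**Figure D4:**
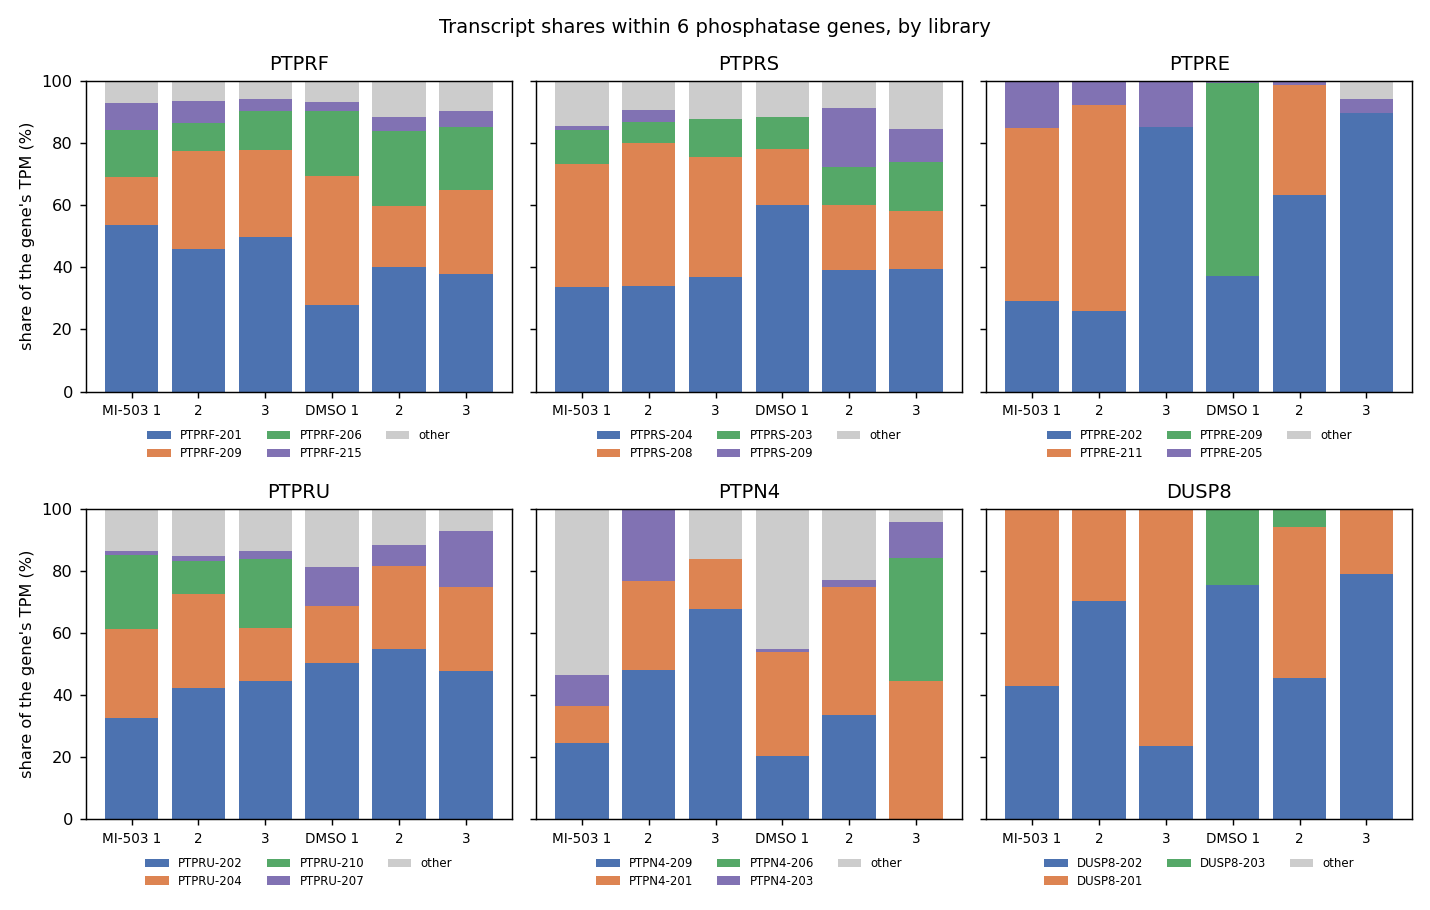
Share of a gene's TPM taken by its 4 leading transcripts (3 for DUSP8) in each library, for PTPRF, PTPRS, PTPRE, PTPRU, PTPN4 and DUSP8, with grey for the rest. The libraries labelled MI-503 are on the left of each panel. The orange part of PTPRS (PTPRS-208) is above 38% in the 3 libraries labelled MI-503 and below 21% in the 3 labelled DMSO, and the green part of PTPRU (PTPRU-210) is absent from the libraries labelled DMSO.

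A promoter in the RefSeq table of build GRCh38.p14, from 250 bases before to 50 bases after the start, was found for 41 of the 48 genes. The 5 printed here, on the coding strand and with CpG sites in capitals, were picked after the values were seen. They show a gene near 0 in the libraries labelled MI-503 whose promoter is rich in CpG (PTPRG, chr3:61561321-61561620, plus strand), one near 0 whose promoter is poor in CpG (PTPRR, chr12:70754710-70755009, minus strand), the genes with the highest positive fold changes among those above 5 CPM (PTPRK, chr6:128520550-128520849, minus strand, and PTPN14, chr1:214551553-214551852, minus strand), and an inducible DUSP (DUSP2, chr2:96145391-96145690, minus strand).
PTPRG: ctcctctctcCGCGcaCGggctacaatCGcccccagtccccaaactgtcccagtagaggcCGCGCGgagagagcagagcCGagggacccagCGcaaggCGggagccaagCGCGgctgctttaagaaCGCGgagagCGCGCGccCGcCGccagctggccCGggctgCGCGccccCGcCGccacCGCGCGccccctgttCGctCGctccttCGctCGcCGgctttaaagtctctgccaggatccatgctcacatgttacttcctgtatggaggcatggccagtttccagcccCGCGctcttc
PTPRR: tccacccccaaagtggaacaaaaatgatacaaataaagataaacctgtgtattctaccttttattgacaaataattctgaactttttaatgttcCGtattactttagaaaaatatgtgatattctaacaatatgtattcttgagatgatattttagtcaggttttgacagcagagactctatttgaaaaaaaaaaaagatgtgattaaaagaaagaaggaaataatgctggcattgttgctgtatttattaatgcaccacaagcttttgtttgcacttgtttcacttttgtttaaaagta
PTPRK: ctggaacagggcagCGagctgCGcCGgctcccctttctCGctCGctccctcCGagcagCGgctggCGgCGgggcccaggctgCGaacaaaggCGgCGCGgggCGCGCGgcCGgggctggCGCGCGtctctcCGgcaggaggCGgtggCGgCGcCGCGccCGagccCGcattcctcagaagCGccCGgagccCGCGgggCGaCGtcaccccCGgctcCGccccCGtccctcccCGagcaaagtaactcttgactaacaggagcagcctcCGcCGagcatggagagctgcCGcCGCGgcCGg
PTPN14: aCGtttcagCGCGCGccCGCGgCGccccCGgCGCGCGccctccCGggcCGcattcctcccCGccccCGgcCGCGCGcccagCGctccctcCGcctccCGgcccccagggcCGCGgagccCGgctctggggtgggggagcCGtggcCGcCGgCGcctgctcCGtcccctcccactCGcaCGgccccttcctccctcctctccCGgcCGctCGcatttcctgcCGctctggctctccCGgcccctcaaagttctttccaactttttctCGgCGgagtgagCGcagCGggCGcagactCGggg
DUSP2: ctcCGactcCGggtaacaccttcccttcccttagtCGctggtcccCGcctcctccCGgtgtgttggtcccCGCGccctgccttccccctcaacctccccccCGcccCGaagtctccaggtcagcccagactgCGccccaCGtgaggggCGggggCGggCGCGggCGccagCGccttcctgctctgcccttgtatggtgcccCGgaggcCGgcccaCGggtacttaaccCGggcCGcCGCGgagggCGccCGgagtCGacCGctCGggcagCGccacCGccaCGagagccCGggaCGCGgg

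The PTPRG window held 34 CpG sites and the PTPRR window 1, although both genes were almost without reads in the libraries labelled MI-503. The windows of PTPRK and PTPN14, the genes that were higher, held 44 and 42, and that of DUSP2 held 35. PTPRM and DUSP9, both lower, had 2 and 29, and DUSP14, which was higher, had 49. The median was 33 over the members tested, 26 over the 11666 promoters of genes tested and 14 over all 35116 promoters in the table. Members with many and with few CpG sites were thus found among those near 0. Of the TPM of PTPRG in the libraries labelled DMSO, 71.2% came from transcripts that start within 100 bases of the RefSeq start. For PTPRR that share was 41.5%, and its leading transcript starts at another place. For PTPRM the share was 43.1%, and the coding transcript PTPRM-202, with a mean of 39.3% of the gene's TPM, starts elsewhere.

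The windows of the 41 genes were searched on both strands for 4 motifs. The cyclic AMP response element TGACGTCA was in 4 of 41 (9.76%), those of DUSP1, DUSP8, PTPRS and PTPRU, against 1.85% of all promoters in the table. The GC box GGGCGG was in 27 of 41 (65.9%) against 44.95%. The AP-1 motif TGANTCA was in 1 (2.44%), PTPN9, against 7.71%, and the ETS motif CCGGAAG in 2 (4.88%), PTPN23 and PTPRA, against 10.3%. These shares are not like for like, since the table also holds promoters of genes not tested and several starts of some genes. Its median CpG count was 14, against 33 over the members tested, and the motifs were not counted over the genes tested alone. None of the 4 motifs contains another, and a match describes the letters and not a bound site. Of the genes with the cyclic AMP response element, DUSP1 and PTPRS were lower in the libraries labelled MI-503, and DUSP8 and PTPRU did not pass. For PTPRS, 4.84% of TPM in the libraries labelled MI-503 and 7.69% in the libraries labelled DMSO came from transcripts that begin within 100 bases of the start searched.

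The genes around these phosphatases were counted by lists, each to be read against the 62.9% of all tested genes that were called. Of 20 MAP kinases and MAP kinase kinases tested, 7 were higher, 7 lower and 6 did not pass (70% called). Among the p38 kinases, which several DUSPs inactivate, MAPK13 averaged 196 ± 9.73 CPM in the libraries labelled MI-503 and 34.6 ± 5.51 CPM in the libraries labelled DMSO (log2 fold change 2.50), while MAPK12 averaged 15.3 ± 4.10 CPM and 139 ± 39.0 CPM (log2 fold change -3.18). Of 20 genes that report ERK output, 6 were higher, 5 lower and 9 did not pass. The early response gene IER3 averaged 193 ± 45.5 CPM against 1.01 ± 0.458 CPM, and EPHA2 4.18 ± 0.584 CPM against 18.8 ± 3.56 CPM. The share called was 55%, with 62.9% over all genes, and DUSP6, DUSP4 and DUSP1, which ERK also induces, differed in direction among themselves.

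Of 11 Src family and related kinases tested, 3 were higher, 4 lower and 4 did not pass (63.6% called, with 62.9% over all genes). PTK6, a kinase of breast epithelium, averaged 57.3 ± 3.21 CPM against 3.67 ± 0.611 CPM, and LYN, which PTPs of the CD45 kind activate in blood cells, 7.39 ± 0.654 CPM against 30.4 ± 1.97 CPM. Of 31 substrates, adaptors and scaffolds tested, 17 were higher, 4 lower and 10 did not pass (67.7% called). GAB2, the docking protein of SHP2, averaged 188 ± 32.5 CPM against 4.13 ± 0.832 CPM. JAK1, a substrate of TCPTP, averaged 311 ± 15.9 CPM against 6.27 ± 1.99 CPM. The genes for SHP2 and TCPTP, PTPN11 and PTPN2, did not pass, though PTPN11 was near the threshold (edgeR adjusted p 0.05782). PTPN1, whose product also acts on JAK kinases, was higher in the libraries labelled MI-503. PPFIA2, a liprin that binds the LAR type, was picked after its values were seen. It had 0 reads in the libraries labelled MI-503 and 74.8 ± 26.6 CPM in the libraries labelled DMSO. The other liprins of the list are not described here, and a link to the lower PTPRF and PTPRS was not tested. Of 31 other phosphatases of the superfamily, 14 were higher, 10 lower and 7 did not pass (77.4% called), with DUSP15 at 15.5 ± 0.715 CPM against 0.293 ± 0.0640 CPM and PTPN20 at 0.0999 ± 0.0976 CPM against 12.9 ± 2.09 CPM.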

How the data were processed

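RNA was extracted with an RNeasy kit and sequenced from 6 libraries of T47D cells, 3 labelled MI-503 and 3 labelled DMSO. The authors quantified each library on its own with salmon (Illumina DRAGEN) and deposited its estimated counts of reads per transcript, not normalized. The same deposited files hold TPM, which salmon made from those counts and effective lengths. The submitters' processing notes name the builds GRCh38.p13 and hg38. The salmon version, annotation release and strand setting were not given in the sources used here.

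The 232117 transcripts were assigned to genes with GENCODE release 44 (98.8% matched, with at least 99.155% of each library's reads). Of these, 160 were copies on the Y pseudoautosomal regions, which were summed with the X copy. Estimated counts were summed to genes, rounded and tested with edgeR 4.0.16 (R 4.3.3) after filterByExpr and TMM scaling (factors 0.9336 to 1.0526), with a quasi-likelihood test of label alone and Benjamini-Hochberg adjustment over the 16442 genes kept. A call needed an adjusted p under 0.05, and the larger differences a log2 fold change over 2. CPM are TMM-scaled. TPM of transcripts were summed to genes, and only TPM were used to compare levels between genes. For groups with 1 to 3 reads a ratio is given with an exact 95% interval, which covers counting error alone, because sequencing reads are not independent molecules. The script was tested on simulated data.

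The members and lists were chosen with earlier results of these data known. Subfamilies, transcripts, promoters and motifs were chosen after the values were seen. Full values are given, per class, for up to 5 called genes in each direction by log2 fold change, provided that the higher group averaged 5 CPM or more, and for the 3 genes with the highest TPM. The remaining members are given more briefly. Of each further list (MAP kinases, ERK output, Src family, substrates and adaptors, other phosphatases) the genes named are among the 4 with the smallest adjusted p, apart from PPFIA2 and MAPK11. Marker lists were luminal breast, prostate, blood cell, neural, endothelial, and basal breast. The basal list summed to 19.5 to 25.5 CPM in the libraries labelled MI-503 and 19.2 to 21.6 CPM in the libraries labelled DMSO. Where RefSeq lists several starts for a gene, the promoter is that of the start with the most TPM within 100 bases.

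The alternatives tried were scaling by RLE or by upper quartiles, no filter, a filter of 1 CPM in 3 libraries, DESeq2 1.42.0, limma-voom (limma 3.58.1), effective-length offsets, the replicate number as a block, and leaving out each library.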

Additional observations from a re-analysis of the deposited data

How the results depend on the processing

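No phosphatase gene changed direction under any alternative while called. Leaving out each library in turn, the receptor-type class had 4 to 5 genes higher and 7 to 8 lower, the non-receptor class 5 to 7 higher and 3 lower, and the DUSP class 2 to 3 higher and 5 to 6 lower. The calls that changed were those of PTPRA, PTPRE, PTPN3, PTPN4 and DUSP1, which were lost under some settings, and of PTPN11, PTPN21 and DUSP5, which were gained under some. RLE scaling changed no member's call. Under upper-quartile scaling the median log2 fold change of all genes was -0.10, and values are to be read relative to it. Libraries with the same replicate number showed no shared shift. Their deviations correlated at -0.0981, 0.0706 and -0.089, and those of differently numbered libraries at -0.1139 to 0.1684. These values do not show whether the experiments were paired. With the replicate number as a block, the counts were 5 higher and 8 lower, 7 higher and 3 lower, and 2 higher and 6 lower, the only member call that changed being PTPN21 (log2 fold change 1.02, edgeR adjusted p 0.0303). PTPRO did not pass the filter of 1 CPM in 3 libraries and has no value there. Depth limits the 9 genes not tested and those with 1 to 3 reads in a group, for which a difference is known only within its counting interval.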
